A study of Mus musculus with 9 samples.

Results

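The sarcomere of the heart is built on myosin, and the genes examined here encode its heavy and light chains: *Myh6*, *Myh7*, *Myh7b*, *Myl1*, *Myl2*, *Myl3*, *Myl4*, *Myl7* and *Myl9*. They were taken by symbol from a table of 48820 genes, in which all 9 were found, and all 9 were among the 13618 genes tested, those averaging 1 FPKM or more (fragments per kilobase of transcript, scaled to the mapped fragments of a heart). To follow them through birth, whole hearts of untreated wild-type (WT) C57BL/6J mice, all labelled male, were sequenced at embryonic day 18.5 (E18.5d), postnatal day 1 (P1d) and postnatal day 7 (P7d), with 3 biological replicates at each stage. Each heart is a mixture of atrial and ventricular muscle, vessels, valves, fibroblasts and blood, so that for any gene below fewer cells of a type and less RNA per cell cannot be told apart.

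A myosin molecule has a pair of heavy chains, whose heads hydrolyse ATP and pull on actin, and each heavy chain carries an essential and a regulatory light chain at its neck. Rodents replace the slow β heavy chain (*Myh7*) of the fetal ventricle by the fast α heavy chain (*Myh6*) around birth, a switch long known to follow thyroid hormone. The light chains differ between chambers: *Myl2* and *Myl3* are the ventricular regulatory and essential chains, *Myl7* and *Myl4* their atrial counterparts, *Myl9* belongs to smooth muscle and *Myl1* to fast skeletal muscle.

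A feature of the labels has to be given first. In 4 hearts labelled male (E18.5d replicates 1 and 3 and P7d replicates 2 and 3) the RNA *Xist*, which coats an inactive X, had 58.0 to 97.0 FPKM and 4 genes of the Y chromosome were listed at 0, whereas the other 5 hearts had *Xist* at 0.02 to 0.11 FPKM and all 4 Y-linked genes. All P1d hearts were among those 5. The 7 cardiomyocyte markers (*Tnnt2*, *Tnni3*, *Tnnc1*, *Actc1*, *Actn2*, *Ttn* and *Ryr2*) summed to 18415 to 21184 FPKM, with every marker present in every heart. The depth, read from the steps between low FPKM values, was 25.5 to 45.75 in units of 1e6 fragments, which gave even *Myh7b*, the scarcest member, about 1280 to 3120 fragments per heart.

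*Myh6* and *Myh7* lie head to tail on the minus strand of chromosome 14 (GRCm38), at chr14:54941921-54966927 and chr14:54970684-54994626, with 3756 bases between them. *Mhrt*, a long non-coding RNA gene, runs the opposite way from the space between them into *Myh7* and overlaps it by 3666 bases, and 484 of its 1214 exonic bases are also exonic in *Myh7*. Each of the 3 cardiac heavy chain genes holds a microRNA in an intron, on its own strand. They are shown because each is transcribed within a heavy chain gene whose level is described here. The seed (bases 2 to 8) is in capitals and the letters are RefSeq's for GRCm38.p6.
mmu-miR-208a-3p, in *Myh6*: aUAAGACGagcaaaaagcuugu
mmu-miR-208b-3p, in *Myh7*: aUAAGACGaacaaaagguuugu
mmu-miR-499-5p, in *Myh7b*: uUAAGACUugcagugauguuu
The microRNAs of *Myh6* and *Myh7* share their seed and 19 of 22 bases, and the one of *Myh7b* shares 6 of the 7 seed bases with both. The genes *Mir208a*, *Mir208b* and *Mir499* were listed at 0 FPKM in every heart. These libraries did not select small RNA, so that the mature microRNAs were not measured.

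**Figure D1:**
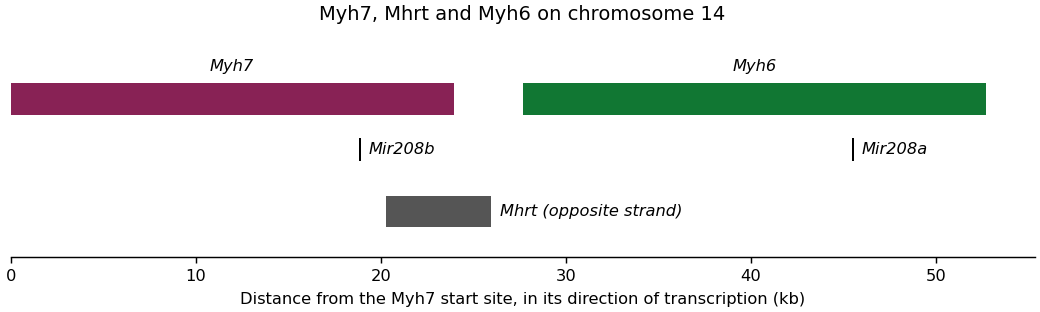
Map of *Myh7*, *Mhrt* and *Myh6* to scale, with the distance from the *Myh7* start site in kilobases on the horizontal axis, bars for genes and ticks for the microRNA genes. *Myh7* and *Myh6* are read from left to right, *Mhrt* from right to left, and *Mhrt* overlaps *Myh7* by 3666 bases.

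The stretches upstream of the start sites of *Myh6* and *Myh7*, the pair that moved in opposite directions, and of *Myl7*, which fell like *Myh7* but less, were read from RefSeq (GRCm38.p6), in the direction of transcription and without annotated exons. Capitals mark matches on either strand to CATTCC (the site of TEAD factors, GGAATG when read on the other strand) or to the CArG box of serum response factor.
*Myh6*, chr14:54966642-54966857, minus strand: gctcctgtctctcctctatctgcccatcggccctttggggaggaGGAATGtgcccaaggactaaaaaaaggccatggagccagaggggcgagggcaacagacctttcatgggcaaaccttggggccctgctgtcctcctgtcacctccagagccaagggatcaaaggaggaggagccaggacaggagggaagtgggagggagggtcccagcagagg
*Myh7*, chr14:54994627-54994876, minus strand: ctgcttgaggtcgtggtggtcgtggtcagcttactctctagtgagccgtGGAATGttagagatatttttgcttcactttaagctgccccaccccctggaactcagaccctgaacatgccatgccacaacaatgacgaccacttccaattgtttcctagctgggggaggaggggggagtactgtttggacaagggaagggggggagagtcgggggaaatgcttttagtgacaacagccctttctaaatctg
*Myl7*, chr11:5898783-5899032, minus strand: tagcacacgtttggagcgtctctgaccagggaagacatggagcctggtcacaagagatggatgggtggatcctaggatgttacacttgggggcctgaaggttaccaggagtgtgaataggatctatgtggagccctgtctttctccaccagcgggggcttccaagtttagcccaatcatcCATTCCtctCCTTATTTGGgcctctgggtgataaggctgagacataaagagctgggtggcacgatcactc
In the 250 bases before the start sites (11 sites for the 9 genes), CATTCC was found for *Myh6*, *Myh7*, *Myl1*, *Myl3* and *Myl7*, against 12.6% of the 32851 promoters of the table. The CArG box was found for *Myl3*, *Myl7* and *Myl9*, against 1.47% of all. AGGTCA, a half-site of nuclear receptors such as those of thyroid hormone, was found for *Myh7b* and in a *Myl2* window (14.02% of all), TATAAA for *Myl1* and in the same *Myl2* window (12.4% of all), and the MEF2 box, which can overlap TATAAA, in no window (2.92% of all). Both strands were read. The table's 2 *Myl2* start sites lie 8227 and 7762 bases upstream of the first *Myl2* start in GENCODE M21, so that the windows at the GENCODE start of *Myl2* were not read, and 208 of the 250 bases of the *Myl4* window are exonic in the neighbouring gene *Cdc27*. The windows of *Myh6*, *Myl1* and *Myl3* lie within the spans that GENCODE M21 gives these genes, which begin farther upstream. Their start sites are 2, 87 and 32 bases from the nearest GENCODE start. The matches are letters in these windows only.

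*Myh6* and *Myl3* rose and *Myh7*, *Myl1*, *Myl4*, *Myl7* and *Myl9* fell between late gestation and the end of the first week, while *Myl2* and *Myh7b* did not pass the test between those stages. Among the 9 genes, 2 were higher, 5 lower and 2 called in neither direction at P7d against E18.5d (limma, adjusted p under 0.05), where 12.5% of all genes tested were higher and 36.9% lower, 49.4% in all. At P1d against E18.5d, 3 were higher, 5 lower and 1 neither, beside 18.4% and 27.6% of all genes (46% in all). At P7d against P1d, 2 were higher, 5 lower and 2 neither, beside 15.5% and 28.6% (44.2% in all). These comparisons share hearts and are not independent of each other. The hearts of both stages did not overlap for 7 of 9 genes at P7d against E18.5d, 2 higher and 5 lower, where this held for 62.5% of all genes (16.9% higher and 45.6% lower). They did not overlap for 8 of 9 at P1d against E18.5d, 3 higher and 5 lower, beside 54.4% of all genes (22.1% and 32.3%), nor for 8 of 9 at P7d against P1d, 2 higher and 6 lower, beside 53.6% (19.3% and 34.3%).

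In FPKM, the heavy chains changed places between the last days before birth and the first week after it. *Myh6*, the fast α chain, was at 3260, 3189 and 3209.7 FPKM in the 3 E18.5d hearts, at 6846, 6408 and 6958 FPKM at P1d, and at 7980.3, 8409 and 8564 FPKM at P7d. The stages did not overlap, and each stage lay wholly above the one before. Its mean of 8318 ± 302 FPKM at P7d was 2.58-fold that at E18.5d (3219.5 ± 36.6, SD, n = 3 in each group), and most of the rise was already present at P1d (6737 ± 291).

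*Myh7*, the slow β chain, was at 3656, 3509.7 and 3517 FPKM at E18.5d, at 2305, 2017 and 1631 FPKM at P1d, and at 143, 54.2 and 98.6 FPKM at P7d. The stages were again apart, in the opposite order to *Myh6*. The mean fell from 3561 ± 82.5 to 1985 ± 338 and then to 98.6 ± 44.5 FPKM (SD, n = 3), so that P7d hearts had 36.1-fold less than E18.5d hearts. The hearts of 1 stage were close to each other before birth, with a coefficient of variation of 2.32%, and unlike each other at P7d, with 45.1%, where the highest was the heart without *Xist*.

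On the scale of log2(FPKM + 1), *Myh6* was higher by 1.06 (SE 0.071) at P1d than at E18.5d and by 0.30 (SE 0.071) at P7d than at P1d, and *Myh7* differed by -0.86 (SE 0.28) and -4.41 (SE 0.28) in the same steps. All 4 steps passed limma with Benjamini-Hochberg adjustment over all 13618 genes (adjusted p = 6.2e-06, 0.00747, 0.0328 and 1.1e-05). The step of *Myh7* from P1d to P7d had the largest absolute log2 change of all genes tested. From E18.5d to P7d, *Myh7* changed by -5.27 (SE 0.28) and ranked 6 of 13618, and *Myh6* changed by 1.37 (SE 0.071) and ranked 281. The first step of *Myh7* kept its direction under all 19 alternatives (log2 change -1.17 to -0.72), but its call depended on single hearts. Its limma adjusted p was 0.0795, 0.0726 and 0.0744 without E18.5d replicate 1, 2 or 3, 0.0659 without P1d replicate 2, 0.0958 without P1d replicate 3, and 0.0834 with no filter on low values. The lowest adjusted p among the alternatives was 0.0024. The spread in the main fit is shared by the 3 stages, so that it includes the uneven P7d hearts. The second step of *Myh6* was lost with no filter (adjusted p = 0.122) and with a covariate for *Xist* (log2 change 0.27, adjusted p = 0.0686).

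Counted within each heart, the *Myh6* share of *Myh6* plus *Myh7* FPKM was 47.1%, 47.6% and 47.7% at E18.5d. At P1d it was 74.8%, 76.1% and 81.0%, and at P7d 98.2%, 99.4% and 98.9%. In FPKM the 2 chains were thus nearly balanced before birth, with *Myh7* slightly ahead in all 3 hearts, and *Myh6* led in every heart after it. The gene lengths behind the FPKM are not given, and which chain led at E18.5d could change with them. Exonic lengths are 6726 bases for *Myh6* and 8616 for *Myh7*, and the longest protein-coding transcripts 6113 and 6230. The stage means were 47.5 ± 0.308%, 77.3 ± 3.28% and 98.8 ± 0.562% (SD, n = 3), and the nearest hearts of neighbouring stages were 27.1 and 17.2 percentage points apart. Over the 9 hearts the 3 stages differed with p = 0.00357 in an exact permutation test of the 1680 arrangements, the smallest p it can give. Each pair of stages gave p = 0.1, the smallest an exact permutation test of 3 against 3 allows. In the 5 hearts with Y-linked transcripts the share was 47.6% in E18.5d replicate 2, 74.8% to 81.0% in the P1d hearts and 98.2% in P7d replicate 1. E18.5d and P7d thus had only 1 such heart each.

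**Figure D2:**
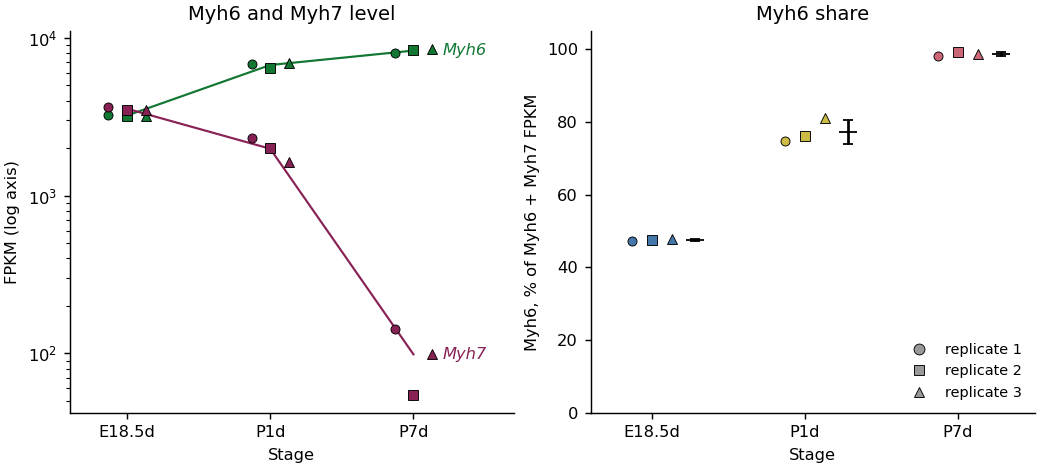
Left, *Myh6* and *Myh7* in FPKM on a log axis by stage, with a point per heart and a line through the stage means, and right, the *Myh6* share of both in percent, with a point per heart and mean ± SD beside it. The 2 genes lay close at E18.5d (3189 to 3656 FPKM), and the share rose from 47.1-47.7% to 98.2-99.4% without overlap between stages.

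The sum of both chains changed far less than their balance. *Myh6* plus *Myh7* was at 6699 to 6916 FPKM in E18.5d hearts, 8425 to 9151 FPKM in P1d hearts and 8123 to 8663 FPKM in P7d hearts, so that both postnatal stages lay above the fetal one and overlapped with each other. Parts of both transcripts are identical: 22.6% of the 50-base windows of the longest protein-coding *Myh6* transcript, and 5.53% of its 150-base windows, occur in transcripts of other genes, of which *Myh7* held the most. How reads that fit both genes were counted is not given in the sources used here, and the low P7d values of *Myh7* have to be read with that.

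*Mhrt*, known in the adult heart as a cardioprotective RNA made antisense to *Myh7*, was at 3.43, 2.17 and 2.51 FPKM at E18.5d, 7.54, 5.65 and 11.8 FPKM at P1d, and 18.2, 16.6 and 17.5 FPKM at P7d. The stages did not overlap, and the order was that of *Myh6* and opposite to *Myh7*. Its log2 change from E18.5d to P7d was 2.33 (SE 0.21, limma adjusted p = 3.03e-05). The library kit does not mark strand, so that reads of *Mhrt* and *Myh7* in their overlap cannot be told apart.

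*Myh7b*, an ancient slow heavy chain gene whose cardiac transcripts are largely not translated, was present at a level far below the other heavy chains. It was at 7.91, 8.38 and 10.3 FPKM at E18.5d, 13.7, 10.95 and 11.6 FPKM at P1d, and 10.6, 8.82 and 10.8 FPKM at P7d. The P1d hearts were highest and did not overlap with either other stage, while E18.5d and P7d overlapped. The step to P1d was 0.41 on the log2 scale (SE 0.12, limma adjusted p = 0.0183), but the call was lost without E18.5d replicate 1 (adjusted p = 0.0675), E18.5d replicate 2 (0.0611) or P1d replicate 1 (0.066), with columns scaled to an equal sum (0.254) and with the *Xist* covariate (0.073). From E18.5d to P7d the log2 change was 0.17 (SE 0.12, limma adjusted p = 0.26).

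Of the regulatory light chains, the ventricular gene *Myl2* was the most abundant protein-coding nuclear gene in every one of the 9 hearts. It was at 14805, 13264 and 13209 FPKM at E18.5d, 14194, 14006 and 16556 FPKM at P1d, and 14897, 15629 and 14613 FPKM at P7d. The stages overlapped, and no comparison passed limma on the deposited scale (log2 changes 0.11, 0.02 and 0.13, SE 0.10, for P1d against E18.5d, P7d against P1d and P7d against E18.5d, with adjusted p = 0.375, 0.914 and 0.305). The direction of *Myl2* depended on the scale of the columns. P7d against E18.5d was 0.31 under median of ratios scaling (limma adjusted p = 0.0387) but -0.47 under quantile normalization (limma adjusted p = 0.00101). Quantile normalization sets each value by the rank of the gene within its heart. In stage means the mitochondrial gene *mt-Co1*, also tested, was at 11650, 20561 and 25542 FPKM. This was below *Myl2* at E18.5d and above it at P1d and P7d. The part of such rank changes in the -0.47 was not tested.

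The atrial regulatory chain *Myl7* was at 3168, 2741 and 2493 FPKM at E18.5d, 1921, 2358 and 2416 FPKM at P1d, and 1494, 1329 and 1486 FPKM at P7d. All P7d hearts lay below all others, and the P1d hearts below the E18.5d hearts by a narrow margin. From E18.5d to P7d it was 1.95-fold lower (log2 change -0.96, SE 0.11, limma adjusted p = 0.000151). The first step, -0.33 on the log2 scale (adjusted p = 0.0407), was lost without E18.5d replicate 1 (0.14) or 2 (0.083), P1d replicate 1 (0.131) or any single P7d heart (0.0507 to 0.0565), with median of ratios (0.0872), with no filter (0.108), with only those 2 stages in the fit (0.0787), with a replicate block (0.0706) and with the *Xist* covariate (0.111). The second step was -0.63 (adjusted p = 0.00204). As a share of *Myl2* plus *Myl7*, it was 15.9% to 17.6% in E18.5d hearts, 11.9% to 14.4% in P1d hearts and 7.84% to 9.23% in P7d hearts. The shares did not overlap between stages (exact permutation test over 9 hearts, p = 0.00357).

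*Myl9*, the regulatory chain of smooth muscle, was at 898, 843 and 745 FPKM at E18.5d, 553, 532 and 615 FPKM at P1d, and 323, 311 and 373 FPKM at P7d. Each stage lay wholly below the one before, and P7d hearts had 2.47-fold less than E18.5d hearts (log2 change -1.30, SE 0.096, limma adjusted p = 9.24e-06), with steps of -0.55 and -0.76 that both passed. Of 5 other smooth muscle genes, 4 were lower and 1 higher from E18.5d to P7d (2 lower and 1 higher with median of ratios): *Cnn1* (calponin) changed by -2.22, *Tagln* by -0.81, *Lmod1* by -0.61 and *Acta2*, named after its values were seen, by -0.35 on the log2 scale, and *Smtn* (smoothelin) by 0.83. Among all genes tested, 36.9% were lower and 12.5% higher as deposited, and the shares with median of ratios are not given here. The call of *Tagln* was lost without E18.5d replicate 2 (adjusted p = 0.0514), that of *Lmod1* under 7 of 19 alternatives (0.064 to 0.1), among them leaving out E18.5d heart 1 or 2 or P7d heart 2 or 3, and that of *Acta2* under 9 of 19 (0.05 to 0.736), among them leaving out E18.5d heart 1 or 2 or P7d heart 1 or 2. Together these 5 summed to 736 to 901, 706 to 811 and 594 to 709 FPKM at the 3 stages, none was at 0, and *Myh11*, the smooth muscle heavy chain, differed by -0.14 (limma adjusted p = 0.636). The part of smooth muscle cells in the change of *Myl9* was not tested.

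The essential light chains moved in both directions. *Myl3*, the ventricular essential chain, was at 2868, 2818 and 2671 FPKM at E18.5d, 3326, 3608 and 3475 FPKM at P1d, and 4462, 4486 and 3777 FPKM at P7d. The stages rose without overlap, although P7d replicate 3 lay nearer to the P1d hearts than to the other 2 of its stage. From E18.5d to P7d the rise was 1.52-fold (log2 change 0.60, SE 0.084, limma adjusted p = 0.000383). Its single steps were smaller, 0.32 (adjusted p = 0.0129) and 0.29 (adjusted p = 0.0215) on the log2 scale. The first was lost with columns scaled to an equal sum (0.171), no filter (0.074) or the *Xist* covariate (0.0943), and the second without P1d replicate 1 (0.0643), P7d replicate 1 (0.08) or P7d replicate 2 (0.0811), with no filter (0.107), with only those 2 stages in the fit (0.0536) and with the *Xist* covariate (0.0523).

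*Myl4*, the atrial essential chain that the fetal ventricle also uses, was at 1832, 1699.8 and 1572 FPKM at E18.5d, 1157, 1402 and 1392 FPKM at P1d, and 770.0, 713 and 707 FPKM at P7d. Each stage lay below the one before with no overlap. P7d hearts had 2.33-fold less than E18.5d hearts (log2 change -1.22, SE 0.091, limma adjusted p = 1.06e-05), and both steps passed (log2 changes -0.37 and -0.85, adjusted p = 0.00864 and 0.00013). The share of *Myl4* in *Myl3* plus *Myl4* was 37.1% to 39.0% in E18.5d hearts, 25.8% to 28.6% in P1d hearts and 13.7% to 15.8% in P7d hearts (exact permutation test over 9 hearts, p = 0.00357). Benjamini-Hochberg adjustment over the 3 shares tested left this p and the others at 0.00357.

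*Myl1*, the essential chain of fast skeletal muscle, showed the largest relative fall of the light chains. It was at 179, 166 and 174 FPKM at E18.5d, 58.4, 62.4 and 74.1 FPKM at P1d, and 28.1, 33.2 and 36.1 FPKM at P7d. The stages were far apart, and on the log2 scale the fall was larger from E18.5d to P1d (-1.41) than from P1d to P7d (-0.98), the reverse of *Myh7*. The log2 change from E18.5d to P7d was -2.38 (SE 0.11, limma adjusted p = 4.38e-07), a 5.33-fold fall that ranked 50 of 13618 by absolute size. Of the 9 skeletal muscle markers, some of which the fetal ventricle also expresses, 5 were tested. Again from E18.5d to P7d, 3 of these were lower (*Pvalb* by -1.41, *Tnnt3* by -1.12, *Tnni2* by -0.79) and 1 higher (*Mybpc2* by 0.93), beside 36.9% and 12.5% of all genes. All 9 together summed to only 18.7 to 23.4, 15.2 to 16.9 and 15.4 to 20.3 FPKM at the 3 stages, below *Myl1* itself in each heart, and the myogenic factors *Myod1* and *Myf5* were at 0.02 FPKM or less. Their part in the change of *Myl1* was not tested. *Myl1* shares 23.4% of its 50-base windows with the pseudogene *Mylf-ps*.

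**Figure D3:**
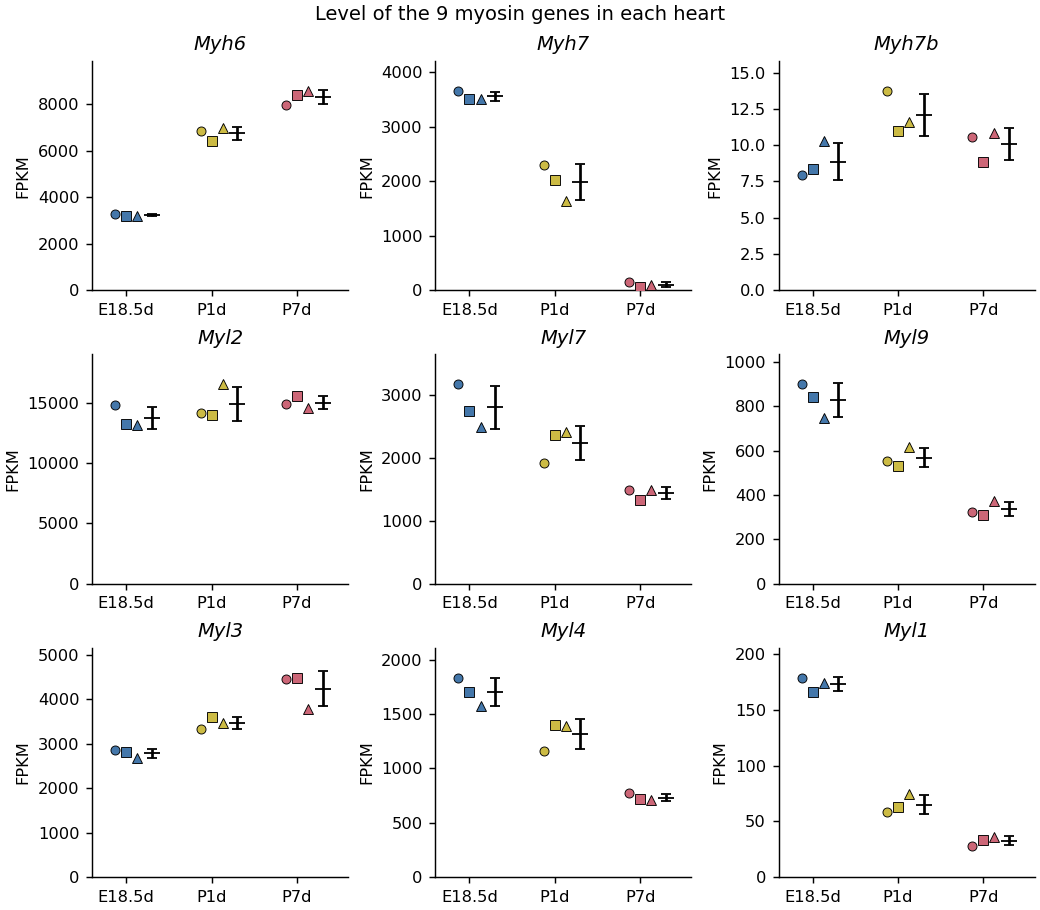
FPKM of the 9 genes by stage on linear axes from 0, with circles, squares and triangles for replicates 1, 2 and 3 and mean ± SD beside them. *Myh6* and *Myl3* rose and *Myh7*, *Myl7*, *Myl9*, *Myl4* and *Myl1* fell through the 3 stages, while *Myh7b* was highest at P1d and the *Myl2* hearts overlapped.

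The deposited columns gave all genes tested a median log2 change of -0.17 from E18.5d to P7d, which median of ratios brought to -0.02. On that scale, 4 members were higher and 5 lower at P7d, since *Myh7b* (0.33, adjusted p = 0.046) and *Myl2* (0.31, adjusted p = 0.0387) passed as well, and *Myh6*, *Myh7*, *Myl4* and *Myl7* were at 1.55, -5.09, -1.04 and -0.78. The share of all genes called with median of ratios is not given here, so that these counts have no background beside them. The median log2 change of the 9 genes was -0.96 as deposited and -0.78 with median of ratios.

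**Figure D4:**
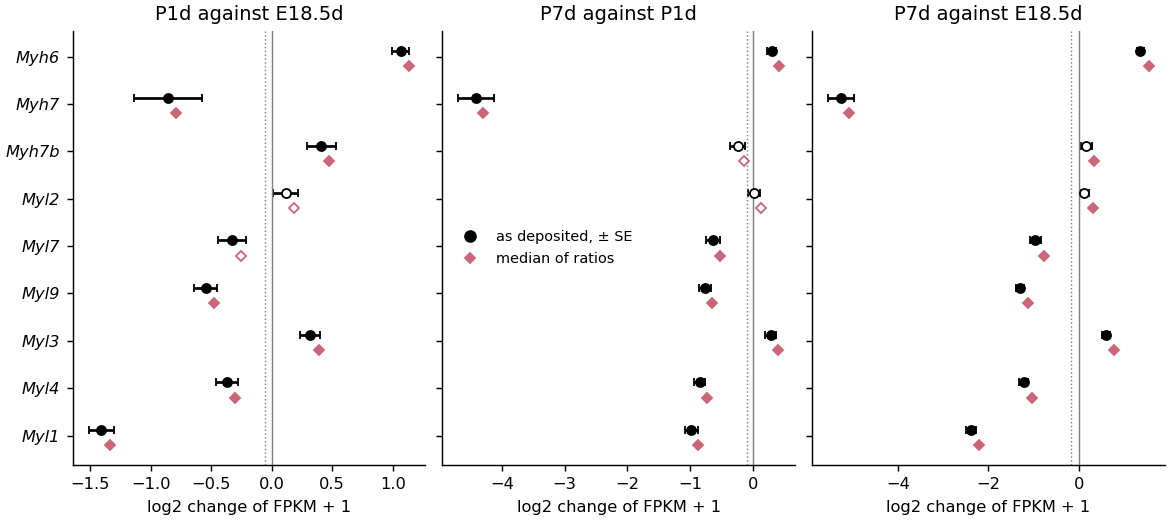
Log2 change of FPKM + 1 of the 9 genes in the 3 comparisons, as deposited with SE (black circles) and with median of ratios (red diamonds), filled where the limma adjusted p was under 0.05. The dotted line is the median of all genes tested as deposited (-0.06, -0.09 and -0.17 from left to right), *Myh7* lies farthest from it at P7d, and each panel has its own horizontal scale.

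FPKM are per length, so that the levels of the genes can be set in order for the length used, which is not given. For *Myl4* the exonic length is 4637 bases and the longest protein-coding transcript 943, whereas both are 590 for *Myl7*. The order below, and sums and ratios of different genes, could shift with that choice. At E18.5d the order of the means was *Myl2*, *Myh7*, *Myh6*, *Myl7*, *Myl3*, *Myl4*, *Myl9*, *Myl1* and *Myh7b*, and only the hearts of *Myl7* and *Myl3* overlapped. At P1d *Myh6* and *Myl3* had moved to ranks 2 and 3, and *Myh7* to rank 5, with hearts that overlapped those of *Myl7* at rank 4. At P7d the order was *Myl2*, *Myh6*, *Myl3*, *Myl7*, *Myl4*, *Myl9*, *Myh7*, *Myl1* and *Myh7b*, with no overlap between neighbours. *Myh7* had thus gone from second to seventh place.

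Together the 9 genes took 5.63 ± 0.219% of the FPKM of protein-coding nuclear genes in E18.5d hearts, 6.18 ± 0.462% in P1d hearts and 6.64 ± 0.0974% in P7d hearts (SD, n = 3). The P7d range (6.56% to 6.75%) overlapped that of P1d (5.73% to 6.65%). In stage means the 9 genes summed to 28838, 31303 and 30249 FPKM, and all protein-coding nuclear genes to 512020, 507161 and 455612 FPKM. From P1d to P7d the share thus rose while both sums fell. Summed by kind, the essential chains *Myl3*, *Myl4* and *Myl1* were at 4418 to 4879 FPKM in E18.5d hearts, 4542 to 5073 FPKM in P1d hearts and 4520.2 to 5260.2 FPKM in P7d hearts, so that these sums overlapped at all stages while their makeup changed. *Myl1* made up 3.72 ± 0.203% of them in E18.5d hearts, 1.34 ± 0.141% in P1d hearts and 0.656 ± 0.133% in P7d hearts. The ratio of *Myl2* plus *Myl7* to *Myh6* plus *Myh7* FPKM was 2.33 to 2.599 in E18.5d hearts, 1.76 to 2.21 in P1d hearts and 1.86 to 2.02 in P7d hearts.

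*Myl4* and *Myl7* are atrial genes in the adult, and 12 other atrial markers were read beside them, some of which the fetal ventricle also expresses. At P7d against E18.5d, 7 of the 12 were lower and none higher, led by *Gja5* (connexin 40, -1.14), *Nppa* (atrial natriuretic peptide, -1.003) and *Sln* (sarcolipin, -0.92) on the log2 scale, and with median of ratios 5 were lower. The call of *Dkk3*, another of the 7, was lost under 12 of 19 alternatives (limma adjusted p = 0.0576 to 0.399). As deposited, 36.9% of all genes tested were lower there and 12.5% higher. At P1d against E18.5d, 5 were higher, among them *Stard10* (0.71), *Nppa* (0.27) and *Sln* (0.28), and 2 lower, beside 18.4% and 27.6% of all genes. *Myl4* and *Myl7* were both lower there, the *Myl7* call being lost under 11 of 19 alternatives. The P1d hearts also lay below the E18.5d hearts for *Bmp10* (31.6 to 39.2 against 54.9 to 60.5 FPKM) and *Kcna5* (6.26 to 7.71 against 8.51 to 8.96 FPKM). With columns scaled to an equal sum only 1 of the 12 was higher at P1d, and the share of all genes on that scale is not given here. The calls of *Nppa* and *Sln* at P1d were also lost without any single E18.5d heart (limma adjusted p = 0.0511 to 0.121). The 12 markers summed to 2688 to 2933 FPKM in E18.5d hearts, 3037 to 3722 FPKM in P1d hearts and 1466 to 1524 FPKM in P7d hearts, and none was at 0 in any heart. The part of the atrial share of each heart in the changes of *Myl4* and *Myl7* was not tested. Of 4 ventricular markers 3 were tested. From E18.5d to P7d 1 was higher, 1 lower and 1 neither, beside 12.5% and 36.9% of all genes higher and lower. *Hey2*, a repressor of atrial genes in the ventricle, changed by -2.05 and *Irx3* by 0.86. All 4 together summed to 52.3 to 58.1 FPKM in E18.5d hearts, 45.8 to 49.6 FPKM in P1d hearts and 33.5 to 36.4 FPKM in P7d hearts.

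**Figure D5:**
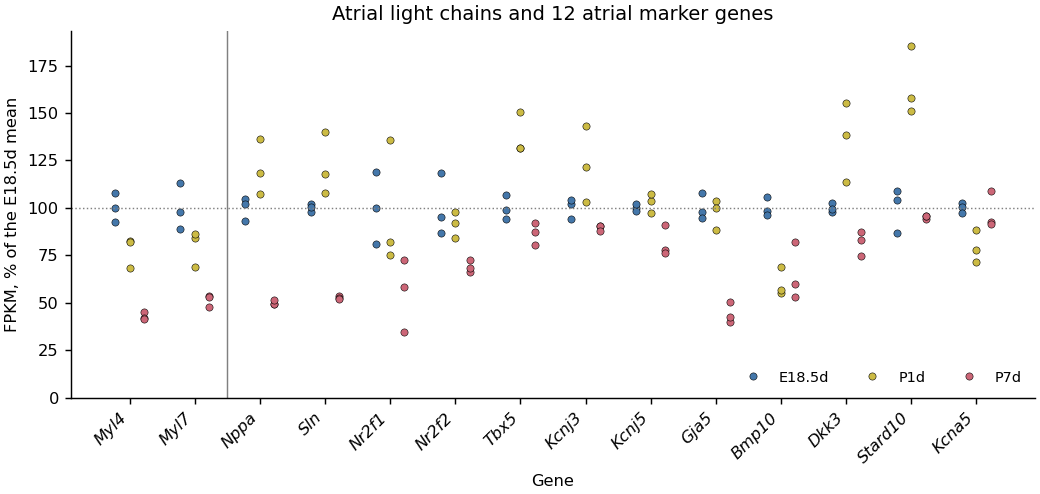
FPKM of *Myl4*, *Myl7* and 12 atrial markers in each heart as a percent of the gene's E18.5d mean, with blue points for E18.5d, yellow for P1d and red for P7d and a dotted line at 100%. The P1d hearts lay below the E18.5d hearts for both light chains, *Bmp10* and *Kcna5*, and above them for *Nppa*, *Sln*, *Tbx5*, *Dkk3* and *Stard10*.

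Marker genes of the airway were uneven between hearts: 6 of them summed to 492 FPKM in P1d replicate 1, to 1.98 to 251 FPKM at E18.5d and to 0.27 FPKM or less at P7d. P1d replicate 1 had the lowest *Myl4*, *Myl7* and *Myl1* and the highest *Myh7* and *Myh7b* of its stage. Without it, the calls of *Myl7* and *Myh7b* from E18.5d to P1d were lost, as given above, and *Myl4*, *Myl1*, *Myl9*, *Myl3*, *Myh6* and *Myh7* kept direction and call. The part of this tissue in the values was not tested.

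The other myosin genes were at lower levels, apart from a few light chains. Of 7 other sarcomeric heavy chain genes only *Myh8*, the perinatal skeletal chain, passed the filter, and it fell by 1.16 on the log2 scale from E18.5d (4.37 to 5.35 FPKM) to P7d (1.55 to 1.97 FPKM). The 7 genes together were at 4.88 to 5.80 FPKM at E18.5d and 1.65 to 2.08 FPKM at P7d, and *Myh15* was listed at 0 in every heart. Of the 4 smooth and non-muscle heavy chains, *Myh14* was higher (2.73) from 0.42-0.62 to 8.43-9.81 FPKM, *Myh9* was higher (0.30, a call lost with columns scaled to an equal sum, adjusted p = 0.13) and *Myh10*, the embryonic non-muscle chain, was lower (-0.68), each from E18.5d to P7d. Among 4 other light chains tested, *Myl6* (-0.82) and the fast skeletal *Mylpf* (-1.25) were lower and *Myl12a* (0.39) and *Myl12b* (0.40) higher.

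Among the genes that act on myosin, 2 kinases of the regulatory light chain were higher after birth. *Mylk3*, the cardiac light chain kinase, had a log2 change from E18.5d to P7d of 0.64 and its relative *Mylk4* one of 1.61. *Mylk4* was at 0.68 to 1.03 FPKM at E18.5d and 4.02 to 5.19 FPKM at P7d, against 108 to 116 and 172 to 183 FPKM for *Mylk3*. Of the 7 kinase and phosphatase genes tested, 3 were higher and 2 lower, beside 12.5% and 36.9% of all genes. The myosin phosphatase subunits *Ppp1r12b* and *Ppp1r12a* were at 0.34 and -0.52. Under median of ratios scaling 5 of these 7 genes passed as higher and 1 as lower, and quantile normalization gave 5 and 2. The shares of all genes called on those scales are not given here. Of 3 myosin binding proteins tested, *Mybpc3*, the cardiac myosin binding protein C, was higher by 0.50 and *Mybpc2* by 0.93, while *Mybphl* was lower (-0.29, limma adjusted p = 0.046), a call lost under 12 of 19 alternatives (0.052 to 0.39), median of ratios and leaving out any single E18.5d or P7d heart among them. Of 4 chaperones, *Hsp90aa1* was lower (-1.04). *Unc45b* passed at -0.18 (limma adjusted p = 0.0477), but the call was lost under 15 of 19 alternatives (0.0513 to 0.987), among them leaving out any E18.5d heart, P1d replicate 1 or 3 or P7d replicate 1 or 3, and the log2 change was 0.0017 with median of ratios.

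Among 18 known regulators of the heavy chain genes, 17 were tested, and from E18.5d to P7d 2 of them were higher and 3 lower. *Rxrg*, a retinoid X receptor that pairs with thyroid hormone receptors, was at 0.43, 0.47 and 0.34 FPKM at E18.5d, 1.17, 0.94 and 0.99 FPKM at P1d and 9.12, 9.73 and 7.66 FPKM at P7d. It was higher at P7d by 2.79 (SE 0.11, limma adjusted p = 2.56e-07). *Sox6*, a repressor of slow muscle genes, was lower (log2 change -0.54). *Tead4* (-0.58) and *Pura* (-0.40) were lower at P1d than at E18.5d and higher at P7d than at P1d (0.43 and 0.65), and for *Tead4* the second call was lost with the *Xist* covariate (0.36, adjusted p = 0.0676). *Thra*, the main thyroid hormone receptor gene of the heart, named here after its values were seen, was higher at P1d than at E18.5d by 0.50. It was lower at P7d than at P1d (-0.29, limma adjusted p = 0.0138), a call lost under 5 of 19 alternatives. From E18.5d to P7d *Thra* did not pass as deposited (0.20, adjusted p = 0.0579) but did with median of ratios (0.38, 0.00387). In this list 5 genes were higher and 3 lower at P1d than at E18.5d (46% of all genes were called), and 3 higher and 3 lower at P7d than at P1d (44.2% of all). With columns scaled to an equal sum these counts were 2 and 3, and 3 and 1. From E18.5d to P7d, 49.4% of all genes were called as deposited, and median of ratios scaling gave 6 higher and 2 lower genes of the list. The shares of all genes called on these other scales are not given here, so that the counts have no background beside them.

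The genes whose log2(FPKM + 1) followed a member most closely over the 9 hearts are given as a description, the 9 points sharing 3 stages. For *Myh6* they were *Vwa8*, *mt-Co1*, *Nceh1*, *Decr1* and *Acadvl* (Pearson r = 0.994, 0.993, 0.992, 0.992 and 0.992). For *Myh7* they were *Cct4* (r = 0.998), *Ears2*, *Acer2*, *Igf2bp3* and *Prr15* (down to 0.993). *Cct4* fell only from 77.2 to 71.1 and 47.9 FPKM in stage means, so that its profile had the shape and not the size of that of *Myh7*. For *Myl4* they were *Mboat2*, *Rps27a*, *Aldh1b1*, *Rpl23a* and *Aldoc* (0.993 to 0.992), for *Myl7* *Zdhhc12*, *Selenof*, *Emc6*, *Cdc42* and *S100pbp* (0.992 to 0.987), and for *Myl1* *Mif*, *Pde6d*, *Tubb2b*, *Nedd4l* and *Col9a1* (0.996 to 0.991).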

How the data were processed

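Total RNA of the 9 hearts was made into libraries with a NEBNext Ultra kit (2 µg per heart). The authors deposited FPKM values for 48820 genes, each heart in its own column. The submitters' processing notes name STAR and GRCm38 (mm10). Versions, the counting tool, strand setting and annotation are not given in the sources used here. Positions were taken from GENCODE M21 (GRCm38), in which 7 of the 9 genes have the same identifier version.

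FPKM were transformed to log2(FPKM + 1), which understates changes of low genes. The 13618 genes averaging 1 FPKM or more over the hearts went into 1 limma fit (version 3.58.1, R 4.3.3) of all 3 stages, with trended eBayes. Adjusted p (Benjamini-Hochberg) under 0.05 was called. The fit was tested on simulated data. Shares were compared by two-sided exact permutation tests in Python 3.11.15 (numpy 2.4.6, pandas 2.3.3), figures drawn with matplotlib 3.10.9. The depth was estimated from whole multiples among low values (85.1% to 88.5% came out whole, against 21.9% to 26.2% by chance), so it is approximate and counting error is not known exactly.

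The members and the 16 lists of other genes were chosen with earlier results of these data known. From each list at most 4 genes with the largest absolute change in any comparison among those past the threshold were named, and for *Myh6*, *Myh7*, *Myl4*, *Myl7* and *Myl1* the 5 most correlated genes. *Acta2*, *Thra*, *Myh11*, *Myod1*, *Myf5*, *Myh15*, the other blood genes and *Tbx5*, *Dkk3*, *Bmp10* and *Kcna5* among the atrial markers were named outside this rule, after their values were seen. The blood list is in the closing section. P-values measure the spread between 3 labelled biological replicates. Alternatives were another pseudocount, filter, column scaling, fit, replicate block, *Xist* covariate, and leaving out each heart.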

Additional observations from a re-analysis of the deposited data

How the results depend on the processing

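The changes from E18.5d to P7d of *Myh6*, *Myh7*, *Myl1*, *Myl3*, *Myl4*, *Myl7* and *Myl9* kept direction and side of the threshold under all 19 alternatives run for each. So did the changes of *Myh6*, *Myl1*, *Myl4* and *Myl9* from E18.5d to P1d and of *Myh7*, *Myl1*, *Myl4*, *Myl7* and *Myl9* from P1d to P7d. The calls of the 9 genes that were lost are given beside their results. *Myl2* turned lower from E18.5d to P7d with quantile normalization (-0.47), from E18.5d to P1d with quantile normalization (-0.47) and equal column sums (-0.060), and from P1d to P7d with the *Xist* covariate (-0.016). Leaving out single hearts gave *Myl2* changes between -0.028 and 0.093 from P1d to P7d, below 0 without P1d replicate 1 (-0.018), P1d replicate 2 (-0.028) or P7d replicate 2 (-0.012). The number of genes called from P1d to P7d was 6013, and 3929 with equal column sums (2200 higher and 1729 lower, beside 2112 and 3901 as deposited) and 3905 with the *Xist* covariate, and the cause was not tested. The hearts share only replicate numbers: same-numbered hearts correlated at -0.055 to 0.112 in their deviations, 1 of 9 pairs over 0.1. A replicate block gave 6667, 6173 and 5857 calls in the 3 comparisons, against 6731, 6260 and 6013 without it. It lost *Myl7* at P1d against E18.5d (limma adjusted p = 0.0706) and no other call of the 9 genes. With the block the 3 shares had p = 0.0278 in exact permutation tests of 216 arrangements, the smallest p these can give. The 3 hearts per stage and unknown counting settings limit what can be read from small log2 changes.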

Other observations

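Of the blood genes, *Hba-a1*, *Hba-a2*, *Hbb-bs* and *Hbb-bt* (haemoglobin chains) and *Alas2* (haem synthesis in red cells) together summed to 8418 to 22743 FPKM in E18.5d hearts, 12729 to 24724 FPKM in P1d hearts and 8549 to 10408 FPKM in P7d hearts. The 3 ranges overlapped between E18.5d and both later stages. None of the 5 genes was called by limma at P1d or P7d against E18.5d, and 1, *Hbb-bt*, was lower at P7d than at P1d (log2 change -1.14, adjusted p = 0.0249). Among all genes tested, 46% and 49.4% were called against E18.5d at P1d and P7d, and 28.6% were lower at P7d than at P1d. Without E18.5d replicate 3, however, *Alas2* (0.99, adjusted p = 0.00818), *Hba-a1* (1.03, 0.0202), *Hbb-bs* (0.77, 0.0433) and *Hbb-bt* (0.86, 0.018) were called higher at P1d, and *Hba-a1* (0.0218), *Hba-a2* (0.04) and *Hbb-bs* (0.0218) lower at P7d than at P1d. With only P1d and P7d in the fit, *Hba-a1* (0.031) and *Hbb-bs* (0.0324) were called lower at P7d as well. Without E18.5d replicate 2, *Hbb-bt* was called lower at P7d than before birth (-1.08, 0.0246) and *Hba-a1* than at P1d (0.0483), as was *Hba-a1* without P1d replicate 3 (0.0401). The call of *Hbb-bt* from P1d to P7d was lost under 5 of 19 alternatives (adjusted p = 0.0591 to 0.0968), namely without P1d replicate 2, P7d replicate 2 or P7d replicate 3, with quantile normalization and with no filter. The highest hearts were E18.5d replicate 3 and P1d replicate 2.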
